A study of Homo sapiens with 4 samples.

Results

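Genomic imprinting leaves a gene active on the copy inherited from only 1 parent, and the genes below are the textbook cases, taken over the whole genome. The list holds 36 genes in 17 chromosomal clusters. Probe sets whose annotation names listed genes and nothing else were taken as members, which gave 97 of 54613 probe sets for 34 of 19775 genes named on the array. H19 and IGF2 were read only by probe sets that also name an unlisted gene and are described apart. SLC67A1 was listed under its older symbol SLC22A18. The genes were chosen by name with the intensity differences between the clones already in view, so every count and adjusted p below describes these arrays and supports no claim about imprinted genes as a class.

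The cells were Raji, an Epstein-Barr virus-positive human Burkitt lymphoma line grown in RPMI medium with serum. The DLEU1-downregulated group was 2 arrays of a clone in which TALENs, engineered proteins that cleave a targeted stretch of DNA, had lowered the long non-coding RNA gene DLEU1. The control group was 2 arrays of a wild-type Raji clone. The treatment field names the TALENs for all 4 samples, so whether the control clone was ever exposed to them is not settled by the labels. Each group stands on 1 clone, so clonal differences and DLEU1 loss cannot be told apart, and the labels do not say whether duplicates were separate cultures. A p-value here reflects array-to-array spread alone, possibly of technical origin, and a lower signal cannot tell fewer expressing cells from less RNA per cell.

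Imprinted genes sit in clusters ruled by a control region whose DNA is methylated on 1 parental copy. The zinc finger protein ZFP57 holds that methylation after fertilisation and recognises the methylated hexamer TGCCGC. In the Prader-Willi and Angelman region, 15q11-q13, the unmethylated paternal copy makes a long transcript that begins at SNURF and SNRPN, runs through small nucleolar RNA genes and PWAR6, and in neurons silences the paternal copy of UBE3A. In other cells UBE3A is read from both copies.

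The promoter windows of 4 listed genes are shown as examples: the paternal start shared by SNURF and SNRPN, NDN in the same cluster, NAP1L5 on another chromosome, and UBE3A as the maternal partner. Each window runs 250 bases before to 50 bases after the annotated start, from RefSeq on GRCh38.p14. They lie at chr15:24954737-24955036 on the plus strand for SNURF and SNRPN, chr15:23687256-23687555 on the minus strand for NDN, chr4:88697780-88698079 on the minus strand for NAP1L5 and chr15:25438975-25439274 on the minus strand for UBE3A. Capitals mark TGCCGC or its reverse complement GCGGCA.
SNURF and SNRPN promoter: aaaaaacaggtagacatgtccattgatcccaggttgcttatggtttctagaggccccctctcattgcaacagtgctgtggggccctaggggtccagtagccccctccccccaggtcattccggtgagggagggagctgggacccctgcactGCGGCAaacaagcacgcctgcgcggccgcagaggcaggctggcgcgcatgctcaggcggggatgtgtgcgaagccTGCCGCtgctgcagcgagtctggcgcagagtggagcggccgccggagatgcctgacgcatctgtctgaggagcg
NDN promoter: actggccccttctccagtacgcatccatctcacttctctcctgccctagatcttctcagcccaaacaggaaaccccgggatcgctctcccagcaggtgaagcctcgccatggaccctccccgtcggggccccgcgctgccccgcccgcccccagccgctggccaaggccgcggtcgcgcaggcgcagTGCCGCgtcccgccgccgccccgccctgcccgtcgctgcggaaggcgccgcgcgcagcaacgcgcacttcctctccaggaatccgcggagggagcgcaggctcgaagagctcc
NAP1L5 promoter: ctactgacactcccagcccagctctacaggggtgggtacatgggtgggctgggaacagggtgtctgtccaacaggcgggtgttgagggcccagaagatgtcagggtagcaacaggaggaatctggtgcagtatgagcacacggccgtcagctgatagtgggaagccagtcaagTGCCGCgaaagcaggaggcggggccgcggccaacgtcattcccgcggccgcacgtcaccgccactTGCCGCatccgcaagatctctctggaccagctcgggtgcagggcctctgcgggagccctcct
UBE3A promoter: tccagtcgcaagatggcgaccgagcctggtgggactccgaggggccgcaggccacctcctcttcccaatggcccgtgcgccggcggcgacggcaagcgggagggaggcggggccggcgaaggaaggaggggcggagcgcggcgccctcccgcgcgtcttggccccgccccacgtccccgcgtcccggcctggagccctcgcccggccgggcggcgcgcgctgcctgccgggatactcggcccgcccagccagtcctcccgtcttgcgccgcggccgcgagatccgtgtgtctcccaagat

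The SNURF and SNRPN window held 18 CG dinucleotides and 2 copies of the hexamer, 1 on each strand. NAP1L5 likewise held 18 CG dinucleotides and 2 copies, NDN held 35 and 1, and the printed UBE3A window held 44 and no copy. Windows were given for 23 listed genes, and 22 of their 54 distinct windows (40.7%) held the hexamer on either strand, against 16.7% of all 34943 windows. The median number of CG dinucleotides was 20 in the windows of listed genes and 14 in all windows. The hexamer was also found in windows of GNAS, BLCAP, IGF2R and PLAGL1, which rose. It was found as well in windows of ATP10A, GRB10 and L3MBTL1, which were not called by their brightest probe sets. DIRAS3, ZDBF2, MEST and MEG3, too dim to be tested, also had it in a window. In all, 15 of the 23 genes had it in a window, though for some, GNAS and PLAGL1 among them, not in every window. The window of MKRN3, which read lower in the downregulated clone, held no copy. Whether the hexamer goes with a change in signal was not tested. A match describes the letters only, and no methylation or binding was measured.

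The deposited values are MAS5 signal intensities, 1 per probe set and array. Differences are DLEU1-downregulated minus control on the log2(intensity + 16) scale, ± SE, with limma p-values adjusted by Benjamini-Hochberg over 32768 tested probe sets at a threshold of 0.05. Of the 97 member probe sets, 49 passed the filter on dim signals and 48 did not. DLEU1 itself read 523.7 and 616.9 in the downregulated clone, against 1363.4 and 1023.8 in the control clone, a log2 change of -1.04 ± 0.24 (limma adjusted p = 3.2e-04; leaving out replicate 1 or replicate 2 of its clone gave -0.92 and -1.15, neither called). The 7 B-cell markers measured read 398.4 or more on the downregulated arrays and 355.3 or more on the control arrays, while the 5 T-cell markers reached no more than 17.1 and 20. No B-cell marker was called as deposited. After quantile normalization 6 fell and none rose, where 20.6% of all genes went each way. The brightest marker of myeloid, fibroblast, neuron or trophoblast cells, COL1A1, read 110.9 and 84.7 in the downregulated clone and 90.2 and 121.2 in the control clone. The arrays had no common scale, with trimmed means of 172 and 197 in the downregulated clone and 163 and 131 in the control clone. The median log2 change over all tested probe sets was 0.16 as deposited and 0.01 after quantile normalization, and both scales are given for the results described most closely.

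Among the 49 tested member probe sets, 5 fell and 16 rose, where 5.11% of all tested probe sets fell and 17.2% rose. After quantile normalization 7 of 48 fell and 16 rose, against 16.7% and 17.0% of all. In both directions together 22.3% of all probe sets passed as deposited and 33.8% after quantile normalization. The clones did not overlap in 8 member probe sets that were lower and 24 that were higher in the downregulated clone, where 17.9% and 40.8% of all tested probe sets did so. These contrasts were known when the genes were listed, and nothing is read from the shares. All 5 falls belonged to 15q11-q13, and 10 of the 16 rises were probe sets of GNAS. The members' median log2 change was 0.27 as deposited and 0.05 after quantile normalization, beside 0.16 and 0.01 for all probe sets.

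In 15q11-q13, the paternally expressed transcripts SNRPN, SNURF and PWAR6 were nearly extinguished in the downregulated clone, while the ubiquitin ligase gene UBE3A was not called. SNRPN encodes a core Sm protein of the spliceosome and SNURF a small nuclear protein from the same transcript, and their brightest shared probe set (201522_x_at) read 61.1 and 52.7 in the downregulated clone, against 1089 and 958.2 in the control clone. Both downregulated arrays lay far below both control arrays, and the ratio of group means was 18 in favour of the control clone. The log2 change was -3.83 ± 0.26 (limma adjusted p = 2.58e-45), and with quantile normalization it was -4.07 (adjusted p = 2.47e-07). The very small p as deposited rests on a spread shared by all probe sets of like brightness.

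A second SNRPN and SNURF probe set (206042_x_at) read 16.5 and 2.3 in the downregulated clone, against 657.4 and 531.7 in the control clone, a log2 change of -4.64 ± 0.25. The third, 1560741_at, read 5.2 and 12.1 in the downregulated clone, against 57.3 and 67.9 in the control clone (-1.68 ± 0.28, limma adjusted p = 8.43e-08). The clones did not overlap in any of these 3 probe sets, and the sizes differed. The suffix _x_at marks probes that may bind related transcripts. The paralogue SNRPB, which encodes the Sm proteins B and B′, was looked up after the values were seen. Its probe sets had log2 changes of 0.48 and 0.47, opposite in sign to those of SNRPN, and 0.12 and 0.16 after quantile normalization. Whether the SNRPN probes bind its transcript was not tested. A dim probe set that names SNRPN alone (240204_at) showed no separation, at 10 and 8.2 in the downregulated clone and 8.4 and 10.3 in the control clone.

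PWAR6, a non-coding transcript further along the same paternal unit, read 2.6 and 0.6 in the downregulated clone, against 173.9 and 122.3 in the control clone (226587_at). Its log2 change was -3.21 ± 0.26 (limma adjusted p = 2.19e-30), and with quantile normalization it was -3.33 (adjusted p = 6.46e-06). The other PWAR6 probe set (226591_at) read 0.4 and 3 in the downregulated clone, against 171.9 and 114.4 in the control clone (-3.15 ± 0.27). All 4 downregulated values lay under the added 16, so the size of these log2 changes is set in part by that number. Both PWAR6 probe sets, and 206042_x_at and 1560741_at of SNRPN and SNURF, averaged under the dim cutoff of 11.3 in the downregulated clone. They could be tested only because they were bright in the control clone and had to differ, so their p-values and shared direction are given as description. Of these 5 probe sets, only 201522_x_at was above the cutoff on all 4 arrays.

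Along the stretch between SNRPN and UBE3A lie probe sets that name SNRPN together with IPW, PWARSN and clustered small nucleolar RNA genes, and these do not count as members. Of 8 such probe sets, 3 were tested and 2 fell. The brighter of these, 213447_at, read 15.1 and 3.6 in the downregulated clone, against 262.6 and 185.9 in the control clone (-3.26 ± 0.25, limma adjusted p = 4.11e-34). Probe set 221974_at read 1.6 and 1.1 in the downregulated clone, against 146.9 and 82.4 in the control clone (-2.87 ± 0.27). The remaining tested one, 1559343_at, behaved otherwise, at 80.7 and 92.7 in the downregulated clone and 90 and 44.2 in the control clone (0.36 ± 0.25, adjusted p = 0.328). The 2 that fell also averaged under the dim cutoff in the downregulated clone. The annotation does not say which of the named transcripts each probe set reads.

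The other paternally expressed members of the cluster were near the floor in both clones. MKRN3, a ubiquitin ligase that restrains the onset of puberty, read 2.8 and 2.3 in the downregulated clone, against 13.8 and 15.3 in the control clone. NDN, which encodes the growth suppressor necdin, read 4.2 and 2.3 in the downregulated clone, against 9.1 and 11.3 in the control clone. PWAR5, a further non-coding transcript of the region, read 0.7 and 4.2 in the downregulated clone, against 15.9 and 6.6 in the control clone. In all 3 the clones did not overlap and the control clone was higher, but every value lay under the median intensity of each array (18.4 to 22.6), and none passed the dim filter. Of all tested probe sets 17.9% were lower with no overlap. No such share was taken over untested ones, so nothing is read from this separation. With no filter the log2 changes of MKRN3, NDN and PWAR5 were -0.72, -0.45 and -0.55, with limma adjusted p = 0.0521, 0.195 and 0.154, so none was called. MAGEL2, an activator of a ubiquitin ligase on endosomes, overlapped between clones, at 4.2 and 7.8 in the downregulated clone and 6.6 and 10.9 in the control clone. NPAP1, which encodes a protein of the nuclear pore, also overlapped, at 7.4 and 14.5 in the downregulated clone and 10.2 and 22.1 in the control clone (-0.24 ± 0.31, adjusted p = 0.639).

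UBE3A, the maternally read gene of neurons, was not called as deposited. Its brightest probe set (211285_s_at) read 2128.2 and 2432.7 in the downregulated clone, against 2106.3 and 1762.5 in the control clone, so the downregulated arrays were higher by a narrow margin and did not overlap. The log2 change was 0.24 ± 0.21 (limma adjusted p = 0.458), and with quantile normalization it was -0.14 (adjusted p = 0.06). Its sign thus depended on the scale, and centring each array on its median gave 0.28 with a limma adjusted p of 0.0422, past the threshold. None of the 6 tested UBE3A probe sets passed as deposited or after quantile normalization, and their log2 changes as deposited ran from -0.13 to 0.35. ATP10A, a phospholipid flippase whose imprinting is disputed, read 12.9 and 26.6 in the downregulated clone and 33.7 and 24.6 in the control clone (-0.36 ± 0.28, adjusted p = 0.4).

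**Figure D1:**
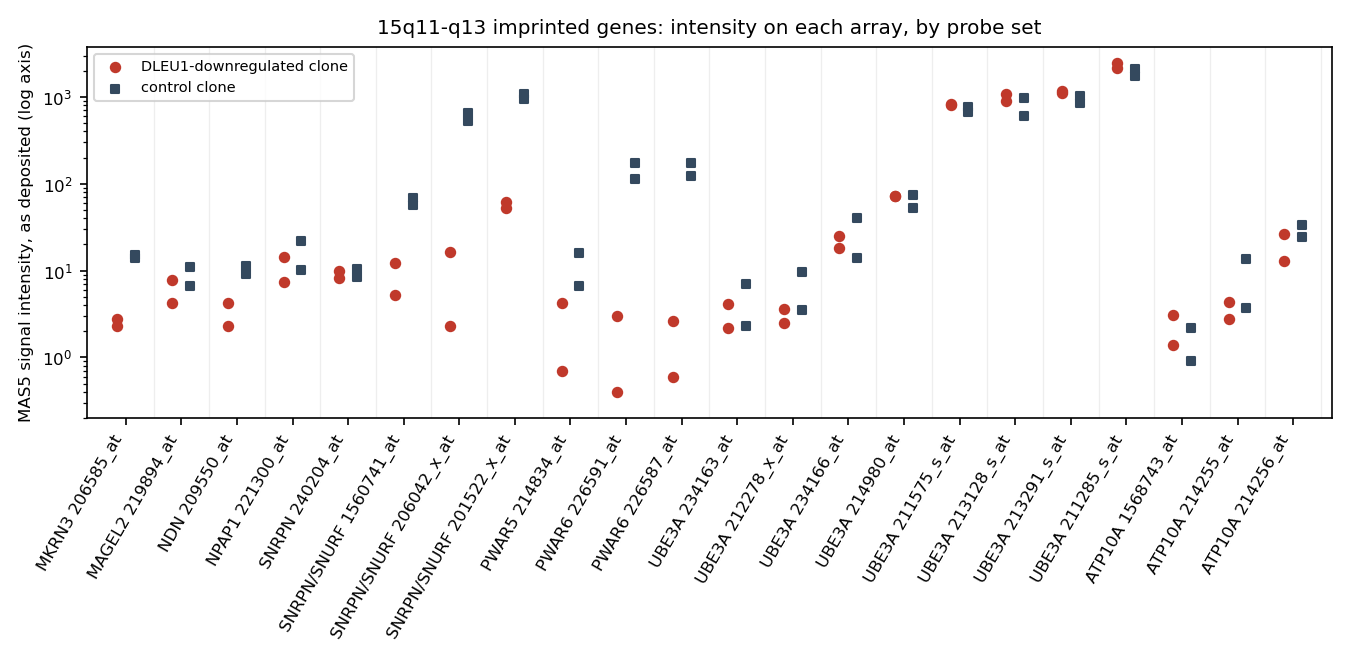
MAS5 signal intensity (log axis) of all 22 member probe sets of 15q11-q13, with 2 arrays of the DLEU1-downregulated clone as circles and 2 of the control clone as squares. The 3 shared SNRPN and SNURF probe sets and both PWAR6 probe sets have no overlap between clones. The dim probe sets of MKRN3, NDN and PWAR5 and some of UBE3A do not overlap either, though the brighter UBE3A values lie close together.

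The genes around the cluster did not share the fall. Of 16 tested neighbours, 3 rose and 2 fell (3 and 4 after quantile normalization), and their median was 0.14 on the log2 scale, or -0.07 with quantile normalization. Over all genes 20.3% rose and 5.74% fell as deposited, and 20.6% went each way after quantile normalization. The counts of neighbours and listed genes here and below stand beside these shares. The magnesium transporter genes NIPA1 and NIPA2, which lie before the cluster, each rose by 0.89, and HERC2, a giant ubiquitin ligase after it, rose by 0.71 (limma adjusted p = 0.0048, 2.24e-04 and 0.0285). TJP1, which encodes a tight junction scaffold, read 5.6 and 2.5 in the downregulated clone, against 35.8 and 31.7 in the control clone (-1.31 ± 0.30, adjusted p = 2.64e-04). TJP1 averaged under the dim cutoff in the downregulated clone. It could be tested only because it was bright in the control clone, and had to differ. WHAMMP2, a pseudogene, was the other neighbour that fell (-0.90). In a list of non-imprinted genes of the wider region, 4 of 11 tested rose, KLF13, a transcription factor, most (1.17 ± 0.23), and TJP1 alone fell. After quantile normalization 4 rose and 3 fell.

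The listed non-imprinted genes that were not called as deposited were TUBGCP5 (0.58), GABRA5 (0.67), NSMCE3 (-0.19), FAN1 (0.12, and -0.15 after quantile normalization), MTMR10 (-0.15) and OTUD7A (0.29). Of these, NSMCE3, of a chromosome maintenance complex, and MTMR10, of a phosphatase family, fell after quantile normalization, by 0.51 and by 0.42. No value in the region outside the imprinted transcripts was as far from 0 as those of SNRPN and PWAR6, either on the log2 scale as deposited or after quantile normalization.

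**Figure D2:**
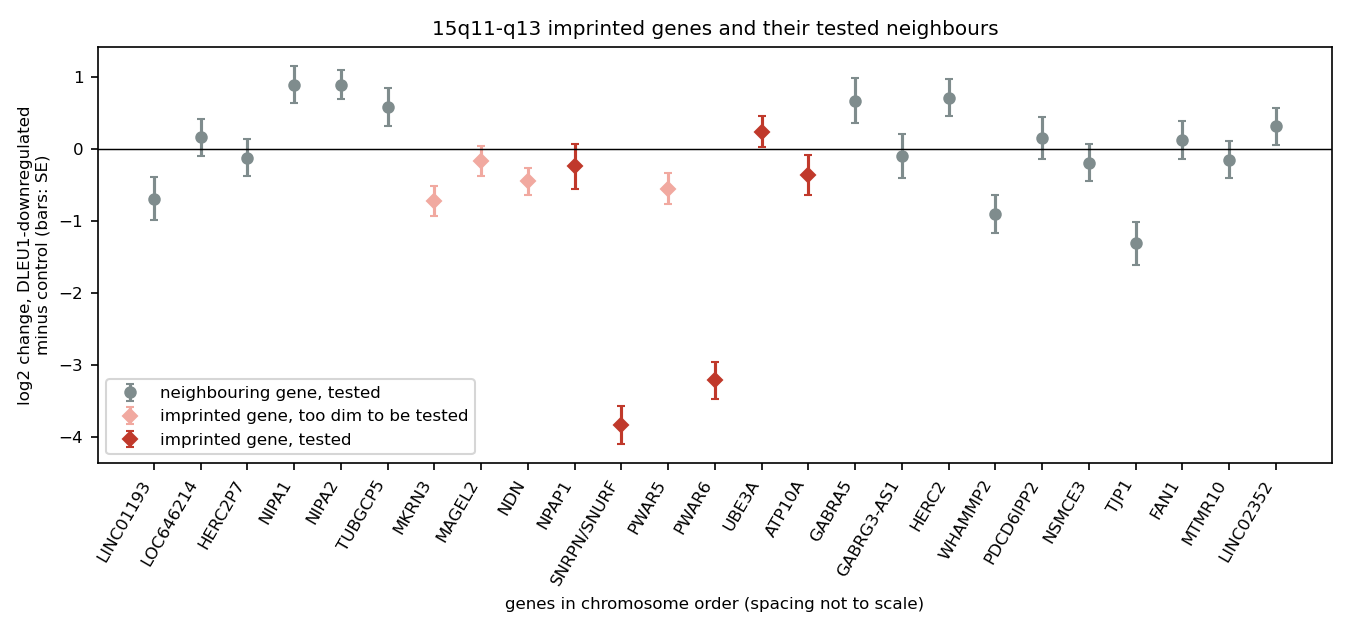
Log2 change (DLEU1-downregulated minus control, bars SE) of 15q11-q13 imprinted genes, diamonds, and 16 tested neighbours, circles, in chromosome order, by the brightest probe set. Pale diamonds are genes too dim to be tested, taken from the fit with no filter. SNRPN/SNURF at -3.83 and PWAR6 at -3.21 stand below genes whose changes run from -1.31 to 0.89.

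On 4q22, NAP1L5, a paternally expressed relative of nucleosome assembly proteins that sits inside another gene, was read by 2 dim probe sets. Probe set 228063_s_at read 0.9 and 0.7 in the downregulated clone, against 24.6 and 20.1 in the control clone. The other, 228062_at, read 0.7 and 0.5 in the downregulated clone, against 16.6 and 22 in the control clone. Both were low on every downregulated array and near the array medians in the control clone, with no overlap. Neither passed the dim filter. With no filter the log2 changes were -1.19 and -1.08 (limma adjusted p = 0.00733 and 0.00916), and -1.17 and -1.07 after quantile normalization (adjusted p = 0.00775 and 0.0172). Since the downregulated values lie far under the added 16, the log2 changes understate the ratio of intensities. The 20 tested neighbours had a median log2 change of -0.02, with 3 that rose and 2 that fell (3 and 4 after quantile normalization). SPARCL1, a matrix glycoprotein, rose by 3.18 and UNC5C, a netrin receptor, fell by 1.40 among them.

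On 20q13.3, GNAS, the stimulatory G-protein alpha subunit whose alternative starts are imprinted in different ways, rose in 10 of 11 tested probe sets, as deposited and after quantile normalization. Most of these carry the suffix _x_at, and all read the same gene on the same arrays, so they are not independent readings. With no dim filter 200981_x_at, 200780_x_at and 212273_x_at were not called (limma adjusted p = 0.0916, 0.2 and 0.24). The brightest GNAS probe set (214548_x_at) read 9704.1 and 10106.8 in the downregulated clone, against 7203.7 and 6575.5 in the control clone. The log2 change was 0.52 ± 0.16 (limma adjusted p = 0.00621), and with quantile normalization it was 0.26 (adjusted p = 0.00118). Leaving out control replicate 2 (0.46), or replicate 1 (0.55) or 2 (0.49) of the downregulated clone, ended the call. Scaling to a common trimmed mean also ended it, with a log2 change of 0.20 (limma adjusted p = 0.105), as did no dim filter (adjusted p = 0.13) and a fit without trend (adjusted p = 0.136).

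Dimmer GNAS probe sets differed more. Probe set 229274_at read 173.5 and 133.6 in the downregulated clone, against 29.2 and 33 in the control clone, a 4.94-fold ratio of means. Its log2 change was 1.84 ± 0.25 (limma adjusted p = 6.97e-11), and 1.69 after quantile normalization. Probe set 217058_at read 32.5 and 25.6 in the downregulated clone, against 4 and 5.1 in the control clone (1.13 ± 0.31, adjusted p = 0.00257). In both, each downregulated array exceeded each control array, but 217058_at lay under the dim cutoff in the control clone, so it could be tested only because it was bright in the downregulated clone, and had to differ. The other 8 called probe sets had log2 changes of 0.41 to 0.90, and 239037_at was not called (-0.08). The annotation gives no isoform for these probe sets. GNAS-AS1, the antisense non-coding RNA of the locus, was not called (0.15 ± 0.25, adjusted p = 0.732, and -0.09 after quantile normalization). Among 20 tested neighbours of GNAS, 6 rose and 1 fell, against 20.3% and 5.74% of all genes, with a median of 0.33, and 0.14 after quantile normalization. FAM217B (1.79), the protease gene CTSZ (1.64) and the small GTPase gene RAB22A (1.59) had the largest changes among them.

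On 20q11, BLCAP, a small conserved protein gene that surrounds NNAT, read 1209.5 and 1348.5 in the downregulated clone, against 908.6 and 738.7 in the control clone. The log2 change was 0.63 ± 0.24 (limma adjusted p = 0.0369), and with quantile normalization it was 0.27 (adjusted p = 0.00747). Leaving out control replicate 2 (0.48), or downregulated replicate 1 (0.71) or 2 (0.55), ended the call. With no dim filter BLCAP was not called either (limma adjusted p = 0.0678). Its 20 tested neighbours had a median of 0.77, and 14 of them rose, led by MTCL2, a microtubule crosslinker (1.45), TTI1, a cofactor of giant kinases (1.44), and NDRG3 (1.13). The change of BLCAP was 0.63 beside this median of 0.77, and 0.27 beside 0.46 after quantile normalization. The difference is within the SE of BLCAP as deposited (0.24) and larger than its SE after quantile normalization (0.06). It was not tested. The paternally expressed proteolipid gene NNAT read 4.2 and 3.3 in the downregulated clone, against 20.7 and 10.4 in the control clone, and was too dim to be tested. On 20q13, L3MBTL1, a chromatin compactor related to polycomb proteins, had no call in 3 tested probe sets, with log2 changes of 0.08 to 0.70. There, 9 of 20 neighbours rose and none fell (1 fell after quantile normalization), among them the cell cycle transcription factor gene MYBL2 (1.23).

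On 6q25, IGF2R, the mannose-6-phosphate receptor that clears IGF2 and is imprinted in mice and variably in people, rose in all 3 of its probe sets. The brightest (201393_s_at) read 603 and 703.2 in the downregulated clone, against 319.4 and 262.3 in the control clone. Its log2 change was 1.13 ± 0.26 (limma adjusted p = 1.98e-04), and with quantile normalization it was 0.79 (adjusted p = 9.5e-05). Leaving out downregulated replicate 1 (1.24) or 2 (1.02) ended the call. The second probe set (201392_s_at) read 376.4 and 395.5 in the downregulated clone, against 213.2 and 157.7 in the control clone (1.01 ± 0.26). The dimmest (1569052_at) read 40.7 and 42 in the downregulated clone, against 22.8 and 6.8 in the control clone (0.95 ± 0.28). With no dim filter this dimmest probe set was not called (limma adjusted p = 0.11). The clones did not overlap in any of the 3 probe sets. The 20 neighbours had a median of 0.02, with 4 rises and 2 falls (3 and 4 after quantile normalization).

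On 6q24, PLAGL1, a paternally expressed zinc finger growth suppressor linked to transient neonatal diabetes, rose in its brightest probe set (209318_x_at). That probe set read 147.4 and 166.8 in the downregulated clone, against 105.5 and 72.5 in the control clone (0.74 ± 0.26, limma adjusted p = 0.0227). After quantile normalization the log2 change was 0.50 (adjusted p = 0.0209). The call ended without control replicate 2 (0.51), and without replicate 1 (0.82) or 2 (0.66) of the other clone. It also ended with no dim filter (limma adjusted p = 0.0991). The other PLAGL1 probe sets had log2 changes of 0.52 and 0.55 and were not called. HYMAI, a paternally expressed non-coding RNA that starts within PLAGL1, rose beside it, at 24 and 28 in the downregulated clone, against 5.8 and 2.2 in the control clone (1.07 ± 0.31, adjusted p = 0.00509). HYMAI averaged under the dim cutoff in the control clone. It could be tested only because it was bright in the downregulated clone, and had to differ. The 20 tested neighbours, HYMAI among them, had a median of -0.02, with 3 rises and 1 fall (3 and 5 after quantile normalization).

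**Figure D3:**
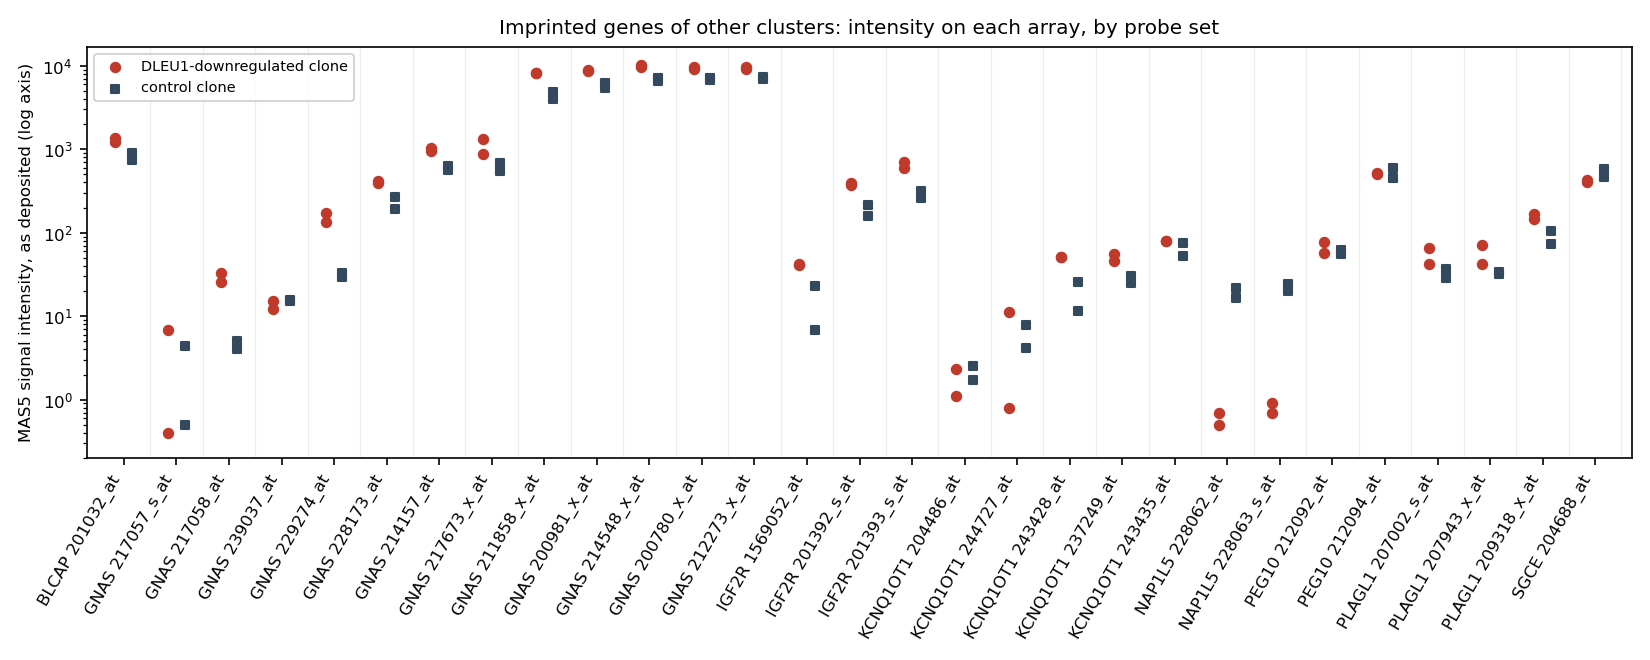
MAS5 signal intensity (log axis) of every member probe set of 8 genes outside 15q11-q13, with circles for the 2 DLEU1-downregulated arrays and squares for the 2 control arrays. NAP1L5 lies below 1 in the downregulated clone, most GNAS and all IGF2R probe sets lie higher there, and PEG10 overlaps.

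On 11p15.5, little of the cluster was detected. KCNQ1OT1, the paternal antisense RNA that silences its neighbours, differed between probe sets. Probe set 243428_at rose, at 50.9 and 51.8 in the downregulated clone, against 11.6 and 25.6 in the control clone (0.99 ± 0.27, limma adjusted p = 0.00271). With no dim filter it was not called (limma adjusted p = 0.084). The brightest, 243435_at, read 79.5 and 80.4 in the downregulated clone, against 75.5 and 52.4 in the control clone (0.28 ± 0.25, adjusted p = 0.476). The third tested, 237249_at, gave 0.60 and was not called (adjusted p = 0.0856). The brightest KCNQ1OT1 probe set was thus not called on either scale, 0.10 being its value after quantile normalization.

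The maternally expressed genes of 11p15.5 were dim or not called. KCNQ1, a potassium channel, reached at most 12.2 on any array, and CDKN1C, the cell cycle inhibitor p57, at most 10.5. PHLDA2, which limits placental growth, read 23.6 and 12.6 in the downregulated clone and 30.5 and 15.8 in the control clone, and was not called (-0.19 ± 0.29). SLC67A1, an organic cation transporter gene, read 34.7 and 29.3 in the downregulated clone and 30.4 and 23.2 in the control clone, with overlap and no call (0.17 ± 0.27, limma adjusted p = 0.722). H19, a non-coding RNA, in a probe set shared with its microRNA MIR675, read 13.1 and 7.6 in the downregulated clone, against 23.4 and 16 in the control clone (-0.44 ± 0.31, limma adjusted p = 0.324). IGF2, a growth factor gene, is instead paternally expressed. Its brightest probe set, shared with INS-IGF2, read 12.5 and 15.7 in the downregulated clone and 23 and 15.6 in the control clone (-0.22 ± 0.30). The neighbours of this cluster were lower, with a median log2 change of -0.35, 3 falls and no rise among 20 tested (9 falls after quantile normalization). CARS1, a cysteinyl-tRNA synthetase gene (-0.95), and PGAP2, of lipid anchor maturation (-0.97), fell, as did TSSC4 inside the cluster (-0.82). By limma no neighbour rose here on either scale.

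On 7q21, PEG10, a gene derived from a retrotransposon, and its neighbour SGCE, which encodes epsilon-sarcoglycan, were expressed in both clones. PEG10 read 513.1 and 510.9 in the downregulated clone and 595.6 and 450.8 in the control clone (212094_at), with overlap and a log2 change of -0.02 ± 0.25. SGCE read 399.7 and 429.6 in the downregulated clone, against 572.2 and 459.4 in the control clone, a log2 change of -0.30 ± 0.25 (limma adjusted p = 0.443). After quantile normalization PEG10 fell by 0.36 (adjusted p = 0.0141) and SGCE by 0.64 (adjusted p = 3.43e-04), so both calls depend on the scale. Across the 20 neighbours 5 rose and 3 fell (5 and 8 after quantile normalization), with a median of 0.19.

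On 7p12, GRB10, an adaptor that restrains insulin receptor signalling, was not called in 2 tested probe sets (-0.54 and -0.17), in a stretch where 10 of 20 neighbours rose and none fell, VOPP1 by 1.59 (none of the 20 fell after quantile normalization either, by limma). On 7q32, MEST, a hydrolase of mesoderm, stayed at or under 8 on every array, while COPG2, a coat protein gene overlapping its end, rose by 1.46. INPP5F on 10q26, a phosphoinositide phosphatase, was measured at 223.8 and 260.2 in the downregulated clone and 235.4 and 195.6 in the control clone and was not called (0.16 ± 0.26, and -0.14 after quantile normalization). TP73 on 1p36, of the p53 family, was not called (0.39 ± 0.28), nor was the probe set shared by the zinc finger genes PEG3 and ZIM2 on 19q13.4 (-0.21 ± 0.29).

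Listed genes of 3 further clusters were too dim to be tested. Those of 14q32, the NOTCH ligand gene DLK1 and the non-coding RNA MEG3, reached at most 14.2 and 19 in their 12 probe sets. DIRAS3 on 1p31, a small GTPase, reached 4.3, and ZDBF2 on 2q33, a zinc finger protein, reached 3.9. In all, 13 listed genes had probe sets of which none was tested.

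**Figure D4:**
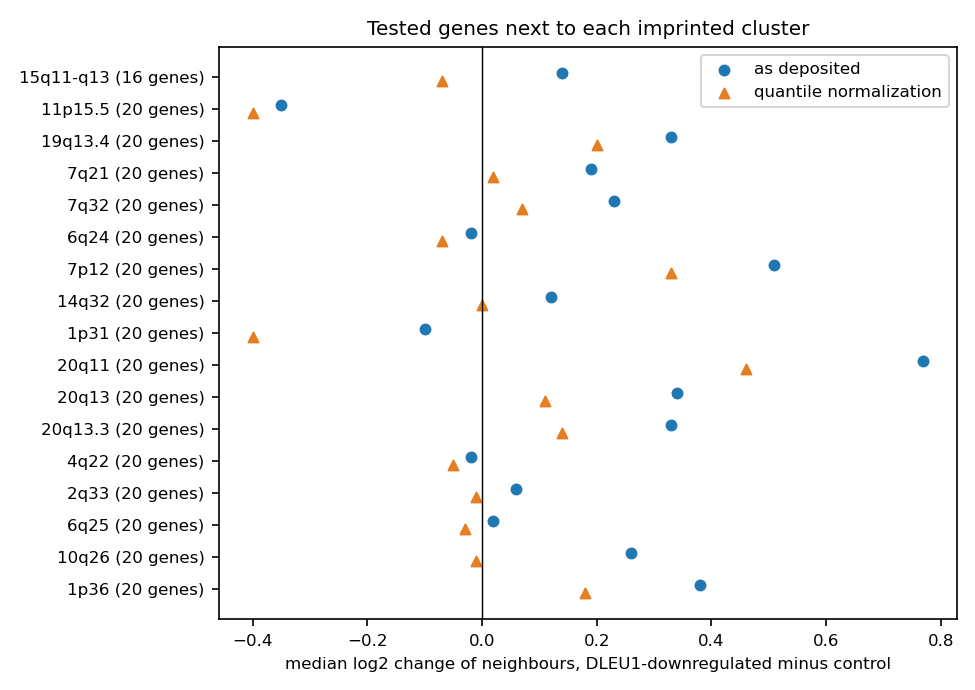
Median log2 change (DLEU1-downregulated minus control) of up to 20 tested genes beside each of the 17 clusters, as deposited (circles) and after quantile normalization (triangles). 20q11 has the highest median (0.77 and 0.46) and 11p15.5 the lowest as deposited (-0.35).

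By the copy that is usually read, 9 genes or pairs read from the paternal copy were tested, and 2 of them fell (SNRPN with SNURF, and PWAR6) and 1 rose (PLAGL1). After quantile normalization 4 fell, PEG10 and SGCE with them, and 1 rose. The 2 plainly maternal genes tested, PHLDA2 and SLC67A1, were not called. IGF2R, variably read from the maternal copy, rose on both scales. UBE3A, maternal in neurons, and ATP10A and TP73, whose imprinting is disputed, were not called on either. Of the 4 genes whose imprinting depends on the isoform, GNAS and BLCAP rose, and GRB10 and INPP5F were not called. By gene, 2 of the 19 tested genes or pairs fell and 4 rose, where 5.74% and 20.3% of 13284 genes did (26.1% in all). After quantile normalization 4 fell and 4 rose, where 20.6% of genes fell and 20.6% rose (41.2% in all), and again nothing is read from these shares.

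**Figure D5:**
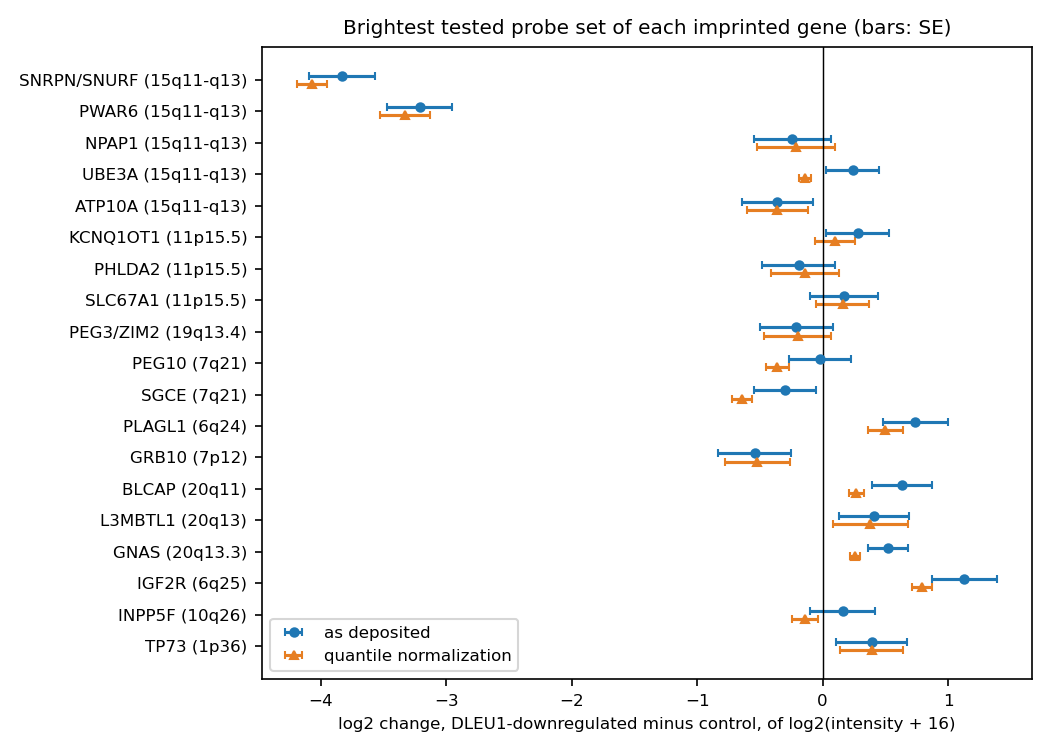
Log2 change (DLEU1-downregulated minus control, bars SE) of the brightest tested probe set of 19 imprinted genes or pairs, as deposited (circles) and after quantile normalization (triangles). SNRPN/SNURF and PWAR6 lie beyond -3 on both scales, and every other gene lies between -0.64 and 1.13.

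Among 17 tested imprinted genes outside the list of members, 2 rose and 2 fell (2 and 4 after quantile normalization), with a median of -0.02. Over all genes 20.3% rose and 5.74% fell (20.6% each way after quantile normalization), and nothing is read from the counts. COPG2 and HYMAI, described above, were those that rose. TSSC4, of snRNP assembly, fell (84.65 on average in the downregulated clone, against 161.1 in the control clone), and so did the serotonin receptor gene HTR2A, at 11.9 and 9.6 in the downregulated clone, against 42.2 and 25.7 in the control clone (-0.88 ± 0.29, limma adjusted p = 0.0158). HTR2A averaged under the dim cutoff in the downregulated clone. It could be tested only because it was brighter in the control clone, and had to differ. HTR2A is imprinted in mice and variably in people.

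Of 22 tested genes that set or read imprints, 4 rose and 2 fell (4 and 7 after quantile normalization). The shares over all genes were 20.3% and 5.74% (20.6% each way after quantile normalization), so the counts give no result about these genes as a group. ZFP57 itself read 1.2 and 3.8 in the downregulated clone and 1 and 1.5 in the control clone, under the dim filter. The rises were TRIM28, its corepressor (0.78 ± 0.24), the de novo methyltransferase gene DNMT3B (0.92 ± 0.26), UHRF1, which guides maintenance methylation (0.71 ± 0.22), and KDM1B, a histone demethylase of oocyte imprinting (0.94 ± 0.26). DNMT3B read 179.5 and 206.7 in the downregulated clone, against 92.2 and 96.7 in the control clone. The falls were TET2, which oxidises methylcytosine (-0.66 ± 0.25), and ARID4B, which in mice helps to regulate imprinting at the SNRPN locus (-0.67 ± 0.24). ARID4B read 570.3 and 686.2 in the downregulated clone, against 1192.9 and 845.6 in the control clone. The maintenance methyltransferase gene DNMT1 was not called as deposited (0.02 ± 0.21), but fell by 0.36 after quantile normalization. SETDB1 (-0.41), CTCF (-0.36), EHMT1 (-0.59) and YY1 (-0.27) likewise fell only after quantile normalization. DNMT1 and these genes were named after their values were seen. Whether any of these moved with SNRPN was not tested.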

How the data were processed

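Total RNA of Raji cells was hybridised to 4 Affymetrix HG-U133 Plus 2.0 arrays, 2 per clone. The authors deposited a linear MAS5 signal intensity per probe set, per the submitters' processing notes; the MAS5 version, target intensity and detection calls are not given in the sources used here. Values were used as deposited, as log2(intensity + 16). The 62 control probe sets and probe sets whose mean log2 value lay below the 40th percentile (an intensity of about 11.3) were left out. limma 3.58.1 in R 4.3.3 (lmFit, eBayes with intensity trend) compared the clones, with Benjamini-Hochberg adjustment over the whole table; the fit was tested on simulated data. The number of arrays limits the precision, and an exact permutation over 6 assignments of 4 arrays cannot go below p = 0.333. Symbols came from the platform annotation of 2016, updated by gene identifier against RefSeq of GRCh38.p14 (42804 probe sets matched); without controls, 41092 probe sets had 1 symbol, 1800 several and 11721 none. A gene was represented by its brightest tested probe set. Neighbours were the 10 nearest tested genes on each side in RefSeq order, fewer at a chromosome end. Members and gene lists were chosen with earlier results of these data known. Named were all members, up to 6 called genes per list, the tested non-imprinted genes of 15q11-q13 and up to 3 called neighbours per cluster. Alternatives were other pseudocounts, filters, scalings, thresholds, eBayes without trend, a replicate term, each array left out, probe sets without _x_at, and gene means. Same-numbered arrays did not deviate together (correlation of -0.05 as deposited).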

Additional observations from a re-analysis of the deposited data

How the results depend on the processing

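The falls of SNRPN with SNURF and of PWAR6 kept their direction and their call under each of the 15 and 16 alternatives that measured them, with log2 changes of -4.15 to -3.17 and of -5.94 to -1.68. The count of member probe sets that fell (5) became 9 with quantile normalization and no filter, an alternative added after the data were seen, and 3 without _x_at probe sets, which removes 2 of the SNRPN and SNURF probe sets. It was 5 to 6 with an array left out. The 16 rises became 23 with median centring, 8 with no filter, 9 without _x_at probe sets, 10 at a threshold of 0.01, 4 with the replicate block and 1 to 16 with an array left out (16 without control replicate 1, 6 without control replicate 2, 1 without either downregulated array). By gene, the 2 falls became 4 with quantile normalization, also without control replicate 2, and with scaling to a common trimmed mean, 5 with quantile normalization and no filter, and 2 to 3 with an array left out. The 4 rises by gene became 5 with median centring, 1 with no filter, 2 without trend, 2 at a threshold of 0.01, 0 with the replicate block and 0 to 4 with an array left out. DLEU1 kept its sign, at -1.24 to -0.83 with an array left out, but lost its call with the replicate block (-1.04, limma adjusted p = 0.162). The replicate numbers pair no arrays as far as the data show, so a call lost under the block is not read as a weaker effect. After quantile normalization the neighbours' medians moved to -0.07 for 15q11-q13, 0.33 for 7p12, -0.40 for 1p31, 0.46 for 20q11, 0.11 for 20q13 near L3MBTL1, 0.14 for 20q13.3, -0.01 for 10q26 and 0.18 for 1p36, and the falls to 4 for other imprinted genes, 7 for imprint regulators and 3 for the non-imprinted 15q11-q13 list. Each fit that leaves out an array has 1 array in a group, assumed to vary like the other group. The rises of GNAS, BLCAP, PLAGL1 and IGF2R lost their call under 7, 6, 6 and 3 of the alternatives run, and no called member value changed sign. Without detection calls, it is unknown whether dim signals lay above background, and the cause of these moves was not tested.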
